A study of Mus musculus with 7 samples.

Results

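Open chromatin was described around 9 mouse genes of the JAK, STAT and SOCS signalling pathway, the kinases Jak1, Jak2 and Jak3, the transcription factors Stat3, Stat5a and Stat5b, and the inhibitors Socs1, Socs3 and Cish. The genes were chosen by name, and every open chromatin region (OCR) that overlapped a gene body or the 20 kb on either side of it was taken. This gave 166 OCRs of 144931 in the whole series, around 9 of 21911 protein-coding genes. The data were bulk ATAC-seq peak lists of 7 libraries of HPC7, a mouse hematopoietic progenitor cell line. In ATAC-seq the Tn5 transposase cuts accessible DNA, and the cut sites pile up as peaks. All 7 libraries, HPC7-1, HPC7-2 and HPC7-4 to HPC7-8, belonged to the same group, for which the labels give no treatment. The cells were grown in medium that held stem cell factor at 50 ng/ml, and each library came from its own culture batch. The line is a single cell line, so the values are for these cells alone. The study used these libraries as a reference OCR profile for cells of this line, and the labels give no second condition to compare. The peak names carry the letters VD in 3 libraries (HPC7-1, HPC7-2 and HPC7-4) and EtOH in the other 4, which the labels do not explain, so values over the 7 libraries pool both.

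Cytokine receptors without kinase activity of their own carry JAK kinases on their inner side. When a ligand brings the receptor chains together, the JAKs phosphorylate the receptor and then the STAT proteins, which pair, enter the nucleus and bind DNA at sites of the form TTCNNNGAA. Among the genes that STATs switch on are the SOCS genes and Cish, whose proteins bind the receptor or the kinase and dampen the signal. In blood progenitors the pathway is known for carrying signals for survival and growth.

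Peak intensity is given here as the fold enrichment of the authors' peak caller, which is the pile-up at the summit divided by a background level for the library, with 1 read added to both. Since libraries have no common scale, each peak was also ranked within its own library, where percentile 100 is the most intense peak. The lists held between 84593 and 132852 peaks. HPC7-1 stood apart, with the longest list and a background of 20.4 reads at the summit position against 4.44 to 7.45 in the other libraries. The promoters of all 12 listed genes of hematopoietic progenitors, among them Kit and Gata2, had an OCR in all libraries. Over all protein-coding genes that share was 60.9%, and the marker lists are short. Of the 5 T cell genes listed, only Lck did, and Cd3g, Cd4, Cd8a and the B cell genes Cd79a and Pax5 had none in any library. Of other listed markers, 2 of 4 erythroid, 1 of 3 hepatocyte, 1 of 3 neuron and 2 of 3 fibroblast genes had a promoter OCR in all libraries.

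All 9 genes had an OCR at the promoter, within 3 kb of a transcript start, in each of the 7 libraries. Among all protein-coding genes the share was 60.9%. The promoter OCR was also in the top 25% of its library by intensity in every library for all 9 genes, against 50.6% of protein-coding genes. Among the protein-coding genes ordered by mean promoter intensity, the 9 genes lay between the 58.4th and the 90.2th percentile. Fold enrichment at the 9 promoters was lowest in HPC7-6 for every gene. It was highest in HPC7-5 for Jak1, Jak2, Stat3, Stat5a and Socs3 and in HPC7-1 for Jak3, Stat5b, Socs1 and Cish. Fold enrichment has no common scale between libraries, and the order changed with the within-library percentile. By percentile HPC7-6 was lowest for Jak1, Jak2, Socs1 and Cish but not for the other genes, and HPC7-5 was highest for none.

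**Figure D1:**
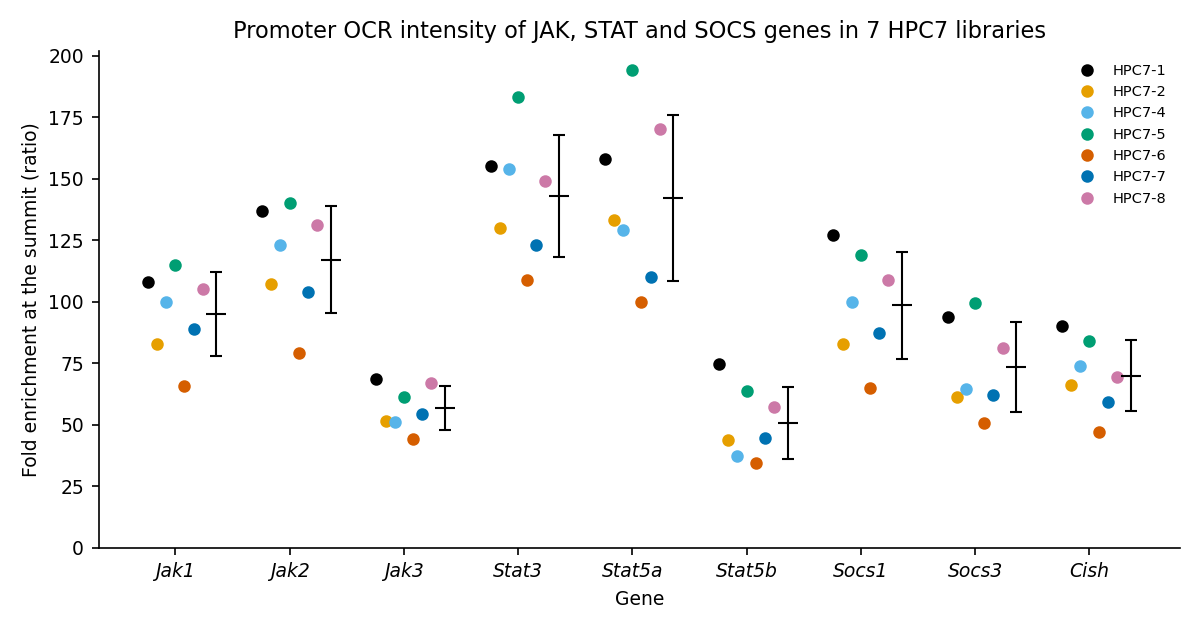
Fold enrichment at the summit of the strongest promoter OCR (y axis, ratio to the library background) for each of the 9 genes (x axis). Each point is 1 of the 7 libraries, and the bar to the right is the mean with its SD. Stat3 and Stat5a are highest, with means of 143 and 142, Stat5b is lowest with 50.8, and HPC7-6 is the lowest point in every gene.

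Stat3 and Stat5a had the most intense promoters of the 9 genes and Stat5b the least intense. In the order of mean fold enrichment the genes ran Stat3, Stat5a, Jak2, Socs1, Jak1, Socs3, Cish, Jak3 and Stat5b. Neighbours in this order did not differ by more than the SD of their difference over the libraries for Stat3 and Stat5a, for Socs1 and Jak1, for Socs3 and Cish, and for Jak3 and Stat5b. Every other neighbouring pair kept the same order in 7 of 7 libraries.

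Of the kinases, Jak2, which serves the receptors for erythropoietin, thrombopoietin and interleukin 3, had the most intense promoter. Its OCR, at chr19:29250616-29254285 in mm10, had its summit 138 bp upstream of the gene start. The fold enrichment at the Jak2 promoter was 79.3 in the lowest library, 123 in the median library and 140 in the highest, with a mean of 117 ± 21.7 (SD, n = 7). Jak1, which is used by interferon and interleukin 6 receptors among many others, had its promoter OCR at chr4:101264227-101265959, with the summit in the UTR. The values at Jak1 ran from 65.7 through a median of 100 to 115, with a mean of 95.1 ± 17.0 (SD, n = 7). Jak3, which works with the common gamma chain of lymphoid cytokine receptors, had its promoter OCR at chr8:71675288-71678375. There the values ran from 44.1 through 54.3 to 68.4, with a mean of 56.8 ± 8.94 (SD, n = 7).

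The ranges of Jak1 and Jak2 overlapped across libraries, but within each library Jak2 was above Jak1. The difference, Jak1 minus Jak2 in log2 fold enrichment, was -0.30 ± 0.05 (SD), with Jak2 higher in 7 of 7 libraries (p = 0.0156 by an exact two-sided permutation of signs over libraries, adjusted p = 0.0201 over the 9 pairs compared within families). The Jak3 values of HPC7-1 and HPC7-8, 68.4 and 66.9, passed the lowest Jak1 value of 65.7, and none reached the range of Jak2. Jak1 was 1.67-fold above Jak3, a log2 difference of 0.74 ± 0.15 (SD), and Jak2 was 2.05-fold above Jak3, a log2 difference of 1.04 ± 0.15 (SD), each in 7 of 7 libraries. Both had p = 0.0156 by the exact permutation test and an adjusted p = 0.0201. A p of 0.0156 is the smallest that 7 libraries can give.

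Around Jak1 and Jak3 the OCRs away from the promoter differed in kind. The Jak1 window of 153 kb held 43 OCRs, the most of any gene, 20 of them in all libraries. The 3 most intense distal OCRs of Jak1 all lay in its introns. The strongest, chr4:101191794-101193078, was 72.8 kb downstream of the gene start, and its fold enrichment was 39.4 in the lowest, 67.2 in the median and 77.9 in the highest library. Its mean of 64.3 ± 13.1 (SD, n = 7) was below the Jak1 promoter in 7 of 7 libraries, by 0.58 ± 0.19 (SD) on the log2 scale. The other two, at 30.8 and 66.8 kb, had means of 32.7 ± 8.87 and 31.2 ± 8.42 (SD, n = 7). One further OCR near the other end of the gene, 110 kb from the gene start, counted as a promoter because a transcript starts near it, and its mean was 28.1.

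The Jak3 window held 26 OCRs, of which 10 were in all libraries. All 3 of its most intense distal OCRs overlapped promoters of the neighbouring gene Unc13a, a regulator of synaptic vesicle release. Their mean fold enrichments were 102 ± 14.3, 78.0 ± 14.8 and 42.4 ± 10.7 (SD, n = 7), at 10.6, 4.60 and 15.4 kb upstream of the Jak3 start. The first of these was above the Jak3 promoter itself, whose highest library was at 68.4 while the lowest library at the Unc13a OCR was at 83.5. Every distal OCR of Jak3 in all libraries lay at a promoter of another gene.

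The Jak2 window held 15 OCRs, 6 of them in all libraries. Its most intense distal OCR lay beyond the end of the gene at the promoter of Insl6, an insulin-like gene, with a mean of 55.9 ± 11.2 (SD, n = 7). Within Jak2 the strongest distal OCRs, at 19.5 and 18.6 kb from the start, had means of only 8.27 ± 2.76 and 7.85 ± 2.34 (SD, n = 7). The former was below the Jak2 promoter by 3.88 ± 0.29 (SD) on the log2 scale, in 7 of 7 libraries.

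The STAT genes lie side by side on chromosome 11. Stat5b and Stat5a, which encode closely related factors, start 8627 bp apart and are transcribed away from each other, and the ends of Stat5a and Stat3 overlap by 72 bp. The 3 genes span 159 kb and, with the flanks, held 44 OCRs, 26 of them in all libraries, and 13 of the 44 belonged to more than 1 gene's window. Between the starts of Stat5b and Stat5a there was 1 OCR clear of both, with a mean of 10.1.

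Stat3, the factor best known for interleukin 6 signalling, had its promoter OCR at chr11:100938078-100940430, with the summit 4 bp from the gene start. The summits of the 7 libraries lay within 4 bp of each other. The fold enrichment at Stat3 was 109 in the lowest, 149 in the median and 183 in the highest library, with a mean of 143 ± 24.7 (SD, n = 7). Stat5a, a factor used by erythropoietin and interleukin 3 receptors, had values from 100 through 133 to 194 at chr11:100858388-100862194, with a mean of 142 ± 33.7 (SD, n = 7). Stat5b, its neighbour, had values from 34.6 through 44.8 to 74.5 at chr11:100849319-100851749, with a mean of 50.8 ± 14.7 (SD, n = 7).

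The Stat3 and Stat5a ranges overlapped almost fully, and neither range touched that of Stat5b. Stat3 was 2.89-fold above Stat5b, a log2 difference of 1.53 ± 0.30 (SD), and Stat5a was 2.82-fold above it, a log2 difference of 1.5 ± 0.23 (SD). Each held in 7 of 7 libraries with p = 0.0156 by the exact permutation test and an adjusted p = 0.0201. Between Stat3 and Stat5a the log2 difference was 0.03 ± 0.16 (SD), with Stat3 higher in 3 of 7 libraries (exact permutation test, p = 0.625, adjusted p = 0.625).

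Stat5b had an intronic OCR, chr11:100814042-100815375, 36.0 kb downstream of its start, that was about as intense as its promoter. The fold enrichment there was 34.6 in the lowest, 48.0 in the median and 62.7 in the highest library, with a mean of 49.2 ± 11.5 (SD, n = 7). On the log2 scale it differed from the promoter by -0.03 ± 0.12 (SD), and it was the higher of the pair in 2 of 7 libraries. A second Stat5b intronic OCR, at 24.0 kb, had a mean of 20.2 ± 4.95 (SD, n = 7), and the promoter of Ghdc, beyond the end of Stat5b, had 24.9 ± 5.03 (SD, n = 7). An internal transcript start of Stat5b, 26.6 kb from the gene start, carried an OCR with a mean of 23.0.

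OCRs at promoters of any of the 9 genes were not counted as distal, which left out 7 OCRs in the Stat5a window, 1 in that of Stat3 and 1 in that of Stat5b. Of the remaining OCRs, the strongest at Stat5a lay in an intron 14.4 kb from the start, with a mean of 9.47 ± 2.86 (SD, n = 7). That was below the Stat5a promoter by 3.93 ± 0.21 (SD) on the log2 scale in 7 of 7 libraries. The next Stat5a OCRs, at 6.50 and 26.0 kb, had means of 7 ± 2.29 and 4.46 ± 1.13 (SD, n = 7), the latter over the end of Stat3. Stat3 too had no intense distal OCR. The strongest lay 17.8 kb upstream in a UTR of the neighbouring gene Cavin1, a caveola component, with a mean of 13.1 ± 3.35 (SD, n = 7). However, transcripts that start inside Stat3 had OCRs of their own, 47.8 and 45.9 kb from the gene start, with means of 67.2 and 37.5. These counted as promoters here, although they also lie in the Stat5a window. These internal promoter OCRs of Jak1, Stat5b and Stat3, and the OCR between the Stat5 genes, fall outside the rule for naming OCRs and were picked after their values were seen.

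**Figure D2:**
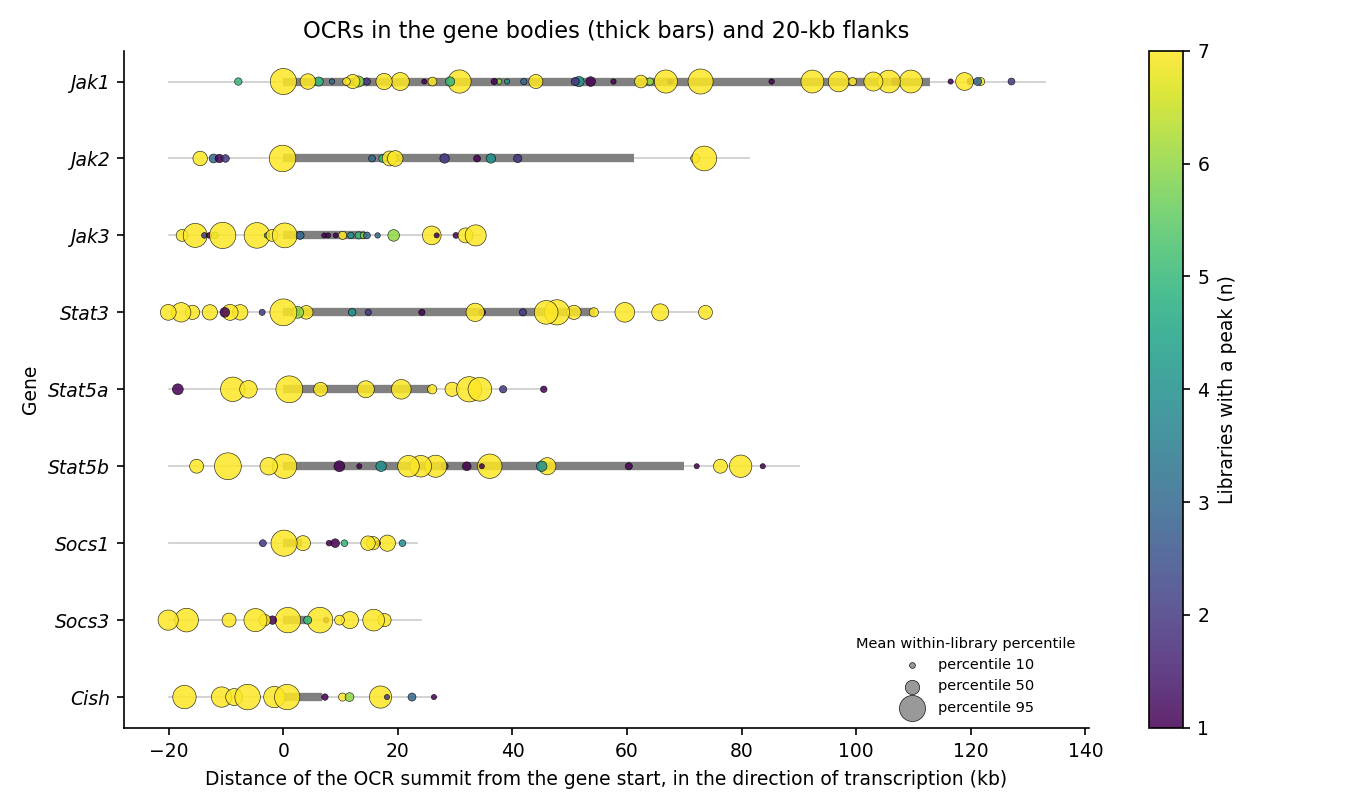
OCRs of each gene (y axis) by the distance of the summit from the gene start in the direction of transcription (x axis, kb). Thick bars are gene bodies and thin lines the 20-kb flanks, the colour is the number of libraries with a peak, and the circle grows with the mean within-library percentile. Jak1 holds 43 OCRs, Socs1 holds 11, and large circles away from the gene start include those of Jak1 at 72.8 kb, Jak2 at 73.5 kb, Jak3 at -10.6 kb, Stat5b at 36.0 kb, Socs3 at 6.39 kb and Cish at -6.23 kb.

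Of the inhibitors, Socs1, which blocks the JAK active site, had the most intense promoter, and both Cish and Socs3 had STAT motifs close to the promoter summit. The Socs1 OCR at chr16:10784478-10787788, which also lay within 3 kb of a start of Tnp2, ran from 64.8 through a median of 100 to 127, with a mean of 98.6 ± 21.8 (SD, n = 7). Socs3, the feedback inhibitor of interleukin 6 type signals, ran from 50.8 through 64.5 to 99.4 at chr11:117968196-117970830, with a mean of 73.3 ± 18.3 (SD, n = 7). Cish, known as an early STAT5 target, ran from 47.1 through 69.3 to 90.2 at chr9:107295480-107297571, with a mean of 70.0 ± 14.6 (SD, n = 7). Its OCR also lay at a start of the noncoding gene Gm17040.

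The ranges of the 3 inhibitors overlapped, yet Socs1 was above the other two within every library. It was 1.35-fold above Socs3, a log2 difference of 0.43 ± 0.12 (SD), and 1.41-fold above Cish, a log2 difference of 0.49 ± 0.10 (SD), with p = 0.0156 by the exact permutation test and an adjusted p = 0.0201 for both. Socs3 and Cish differed by 0.06 ± 0.16 (SD), with Socs3 higher in 5 of 7 libraries (exact permutation test, p = 0.391, adjusted p = 0.439). In all, 7 of the 9 pairs compared within the 3 families passed the threshold of 0.05.

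The letters TTCNNNGAA, the core that STAT dimers bind, were searched in 200 bases centred on the summit of each OCR. The motif reads the same on both strands. Over all OCRs of the series, 4.82% held it. Of the 35 OCRs named by rule, 3 held it: the promoter OCRs of Cish and Socs3 and a distal OCR of Cish. Their sequences are printed because they show how the motif sits at the summit, with the motif in capitals, read 5′ to 3′ on the strand of the gene from the GRCm38 (mm10) genome. The promoter stretches are cut to 30 bases around the motif.

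Cish promoter, chr9:107296654-107296683, plus strand: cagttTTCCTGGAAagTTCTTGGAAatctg
Cish promoter, chr9:107296762-107296791, plus strand: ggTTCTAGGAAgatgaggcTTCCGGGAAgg
Socs3 promoter, chr11:117969229-117969258, minus strand: cggccgggcagTTCCAGGAAtcggggggcg
Cish distal, chr9:107312890-107313089, plus strand: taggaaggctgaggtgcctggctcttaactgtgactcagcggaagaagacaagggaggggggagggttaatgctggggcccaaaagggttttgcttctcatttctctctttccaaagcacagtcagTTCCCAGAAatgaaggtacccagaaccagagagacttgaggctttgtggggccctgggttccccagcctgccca

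The Cish promoter window held 4 matches, in 2 groups of 2 on either side of the summit. Their centres lay 32 and 21 bases before the summit and 73 and 90 bases after it, all in annotated UTR sequence. Measured from the start of the transcript in RefSeq, the centres were at 4, 15, 109 and 126 bases. Since the Cish summits of the 7 libraries lay within 15 bp of each other, all 4 matches were within 100 bases of the summit in 7 of 7 libraries. Of the 144931 OCRs, 210 held at least 2 matches in such a window, and only 1, a share of 0.000690%, held 4 or more, which was this one. The count of 4 was looked up after the Cish window had been seen.

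The Socs3 match lay 4 to 62 bases from the summit across the 7 libraries, with a median of 7 bases, in a Socs3 intron of the GENCODE annotation. A second match in the Socs3 promoter OCR lay 150 bases upstream of the RefSeq transcript start and 211 to 269 bases from the summits. Over the whole length of the strongest promoter OCR, matches were also present at other genes, with 5 in Cish, 4 in Jak2, 3 in Socs1, 2 each in Stat5a and Socs3, 1 in Jak1 and 0 in Jak3, Stat3 and Stat5b. These promoter OCRs were 1733 to 3807 bp wide, and no count over all OCRs of such width is given here for comparison. The Cish distal match was intergenic, 17.0 kb downstream of the gene start and 20 to 79 bases from the summits. RefSeq promoters, from 250 bases before to 50 bases after a transcript start (GRCm38.p6), were matched for 9 of 9 genes by symbol, with 11 promoters in all. The motif was in those of Cish and Socs3 alone, with 2 matches in Cish, and in 8.30% of all RefSeq promoters.

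Across all 166 OCRs of the 9 genes the motif was not frequent. It was in the summit window of 12 (7.23%, 95% Wilson interval 4.18 to 12.2), against 4.82% of all OCRs, which lies inside that interval. The same motif with its spacer made 1 base longer, a control, was in 4 (2.41%, interval 0.941 to 6.03) against 4.27% of all OCRs. The ETS core CCGGAAG was in 5 (3.01%) against 2.22%, the GATA motif AGATAA in 24 (14.5%) against 13.6%, the RUNX motif TGTGGT in 40 (24.1%) against 26.7%, and the E-box CACGTG in 7 (4.22%) against 3.50%. For these motifs too the share over all OCRs lay inside the interval of the members' share. Both strands were searched, and a match is a description of the letters and not of binding.

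Away from the promoter, Socs3 had an intergenic OCR, chr11:117962977-117965340, that was as intense as its promoter. It lay 6.39 kb from the gene start, past the end of the short gene, and its fold enrichment was 55.7 in the lowest, 72.9 in the median and 98.7 in the highest library, with a mean of 78.7 ± 16.5 (SD, n = 7). It was above the Socs3 promoter in 6 of 7 libraries, by 0.11 ± 0.10 (SD) on the log2 scale. The summit window of this OCR held no STAT motif, and its whole length of 2364 bp held 1 match. The other Socs3 OCRs named were at the promoter of Pgs1, a phospholipid synthesis gene, with 37.6 ± 10.7, and in the intergenic space 4.86 kb upstream, with 30.9 ± 8.41 (SD, n = 7).

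The strongest distal OCRs of Cish overlapped promoters of Mapkapk3, a kinase of the p38 pathway. They had means of 73.9 ± 13.5 at 6.23 kb and 34.4 ± 10.7 at 17.3 kb upstream (SD, n = 7). The intergenic Cish OCR with the STAT motif, chr9:107312293-107313668, ran from 16.6 through 23.3 to 31.0, with a mean of 23.4 ± 4.77 (SD, n = 7). It was below the Cish promoter in 7 of 7 libraries, by 1.58 ± 0.16 (SD) on the log2 scale. Socs1 stood at the other end, since its strongest distal OCRs, all intergenic and between 14.8 and 18.2 kb downstream, had means of 8.15 ± 1.41, 6.90 ± 1.60 and 6.08 ± 1.06 (SD, n = 7). The strongest of these was 3.59 ± 0.36 (SD) below the Socs1 promoter on the log2 scale.

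**Figure D3:**
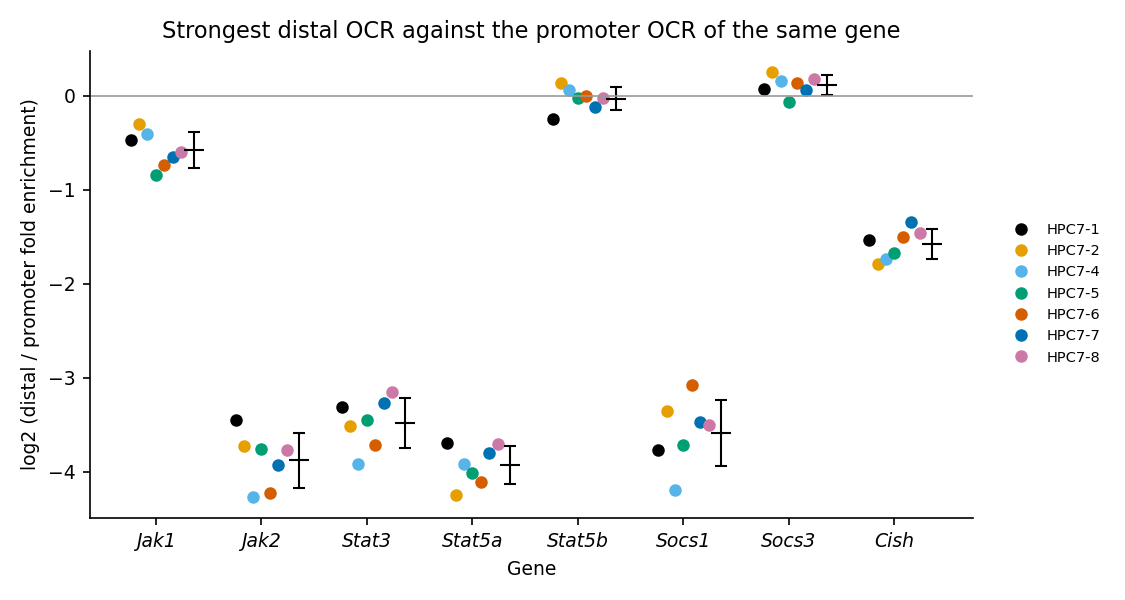
log2 of the ratio of fold enrichment between the strongest distal OCR that is not at another gene's promoter and the promoter OCR of the same gene (y axis) for 8 genes (x axis), since Jak3 had no such OCR in all libraries. Each point is 1 of 7 libraries and the bar is the mean with its SD. Stat5b and Socs3 lie at the line of 0, with means of -0.03 and 0.11, while Jak2, Stat3, Stat5a and Socs1 lie below -3.

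Over the whole set, the number of libraries that shared an OCR was counted by its place, with no test. Of the 166 OCRs, 86 (51.8%) were found in all 7 libraries, against 46.2% of all OCRs. Among the 28 OCRs at promoters of the 9 genes, 20 (71.4%) were in all libraries. The shares were 17 of 31 OCRs at promoters of other genes, 31 of 72 distal OCRs inside genes and 18 of 35 intergenic OCRs. Of the 34 OCRs found in a single library, 28 were in HPC7-1, which covered 159 of the 166 OCRs (95.8%) where the other libraries covered 97 to 124 (58.4 to 74.7%). Of all 144931 OCRs, HPC7-1 covered 91.0% and the others 53.4 to 78.3%. Without HPC7-1, 90 OCRs were in all of the remaining libraries. With the same number of peaks taken from each library, 78 OCRs were in all 7. Read depth itself was not matched, and its part in the counts by single library was not tested.

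In each library the median percentile of peaks in promoter OCRs was higher than that of peaks in distal OCRs. The median was 81.6 ± 1.90 for promoter and 48.7 ± 4.09 for distal peaks (SD, n = 7). The difference ran from 28.9 to 38.7 percentile points, with a mean of 32.9 ± 3.45 (SD), and was above 0 in 7 of 7 libraries (p = 0.0156 by the same exact permutation test). Around all protein-coding genes the difference measured the same way was 20 ± 2.06 (SD, n = 7). The difference was 34.4 within the 3 libraries with VD in the peak names and 31.8 within the 4 with EtOH, where the exact permutation test cannot go below p = 0.250 and p = 0.125.

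**Figure D4:**
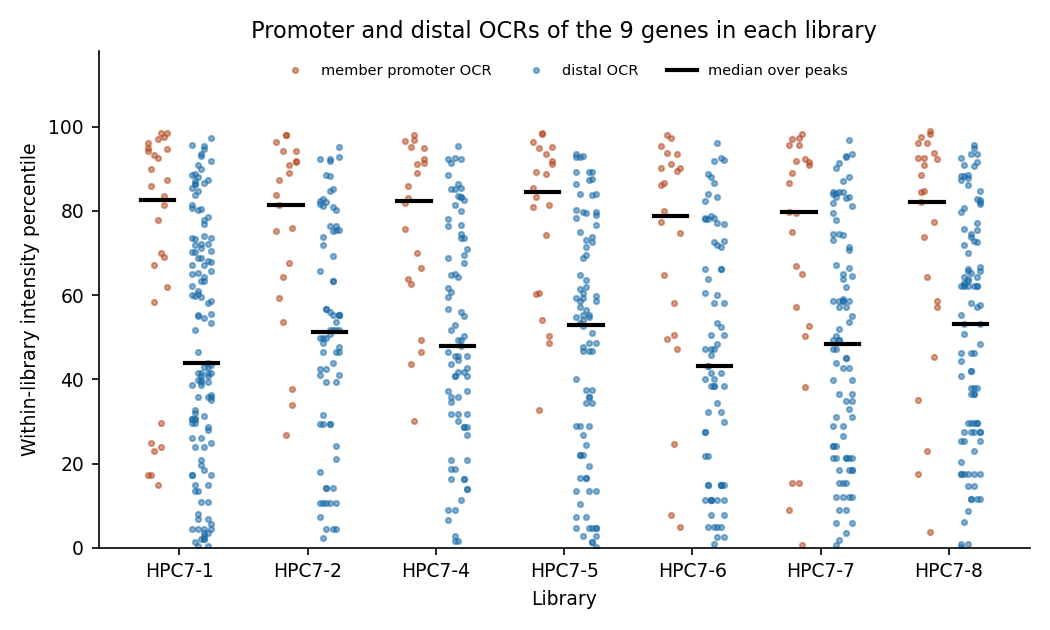
Within-library intensity percentile (y axis) of the OCRs at promoters of the 9 genes and of their distal OCRs in each library (x axis). Distal OCRs include those at promoters of other genes. Each point is an OCR with a peak in that library, and the bars are the medians over peaks. The promoter median is above the distal median in every library, by 28.9 to 38.7 points.

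The genes also differed in how densely OCRs lay around them. The median over the 9 genes was 1.52 OCRs in all libraries per 10 kb of window, against a median of 0.494 over protein-coding genes. Socs3, in a window of 44.0 kb, had 2.5 per 10 kb, at the 99.8th percentile of protein-coding genes, and Jak3 had 1.84. Jak2 was the lowest with 0.593, and lay at the 54.8th percentile of protein-coding genes. Cish had 1.71, Stat3 1.69, Stat5a 1.52, Jak1 1.31, Socs1 1.15 and Stat5b 1.00. Windows of short genes are mostly flank, and those of Stat5a and Stat3 share OCRs.

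The promoters of the rest of the pathway were counted over 5 lists with 72 genes, 61 of which had a promoter OCR in all libraries, a share of 84.7% against 60.9% of all protein-coding genes. The measure is the most intense OCR within 3 kb of a transcript start, which can belong to a neighbour, and a gene with no peak listed there is below the caller's threshold. All 10 other JAK, STAT and SOCS genes had one. Socs5 and the kinase Tyk2 had the highest values, 226 ± 32.5 and 200 ± 40.1, and Stat4 and Stat6, used by interleukin 12 and interleukin 4, the lowest, 50.0 ± 9.48 and 35.7 ± 6.40 (SD, n = 7). All 15 phosphatases, adaptors and other inhibitors had a promoter OCR in the top 25% in all libraries, where the share over protein-coding genes was 50.6%. Among these the phosphatase genes Ptpn6 and Ptpn2 were highest, with 155 ± 35.5 and 141 ± 26.1, and the phosphatase Ptprc and the adaptor Sh2b2 lowest, with 30 ± 5.13 and 29.4 ± 3.41 (SD, n = 7).

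Of 21 receptor genes, 17 had a promoter OCR in all libraries, led by the interferon receptor chains Ifngr1 with 181 ± 32.7 and Ifnar1 with 177 ± 29.5 (SD, n = 7). The lowest of the 17 were Il2rg, the common gamma chain, with 16.4 ± 4.35, and Csf3r, the receptor for granulocyte colony-stimulating factor, with 10.6 ± 2.41 (SD, n = 7). Lepr, Lifr and Osmr, the receptors for leptin, leukaemia inhibitory factor and oncostatin M, had none in any library, and Prlr had one in 5. Of 13 ligand genes, 6 (46.2%) had a promoter OCR in all libraries, where the share was 81.0% for the receptors and 60.9% for all protein-coding genes. Among these 6, Lif and Epo were highest with 61.3 ± 13.1 and 49.7 ± 6.91, and Gh and Csf2 lowest with 10.5 ± 2.92 and 4.78 ± 0.912 (SD, n = 7). Il7 had one in 4 libraries, Il3 in 3, Osm in 2 and Thpo in 1, with means of 2.65 to 3.93 over the libraries with a peak. Kitl, which encodes the stem cell factor that was added to the medium, Ifng and Prl had no promoter OCR in any library.

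All 13 genes listed as known STAT5 or STAT3 targets had a promoter OCR in the top 25% in all libraries, against 50.6% of protein-coding genes. The kinase gene Pim1 and the survival gene Bcl2l1 were highest with 179 ± 25.1 and 175 ± 31.1, and Fos and Bcl6 lowest with 71.9 ± 14.8 and 30 ± 4.69 (SD, n = 7). In the order of all protein-coding genes by promoter intensity the median rank was the 77.0th percentile for the targets, the 76.5th for the 9 genes, the 74.2th for the other JAK, STAT and SOCS genes, the 70.3th for the phosphatases and inhibitors, the 59.9th for the receptors and the 36.5th for the ligands.

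**Figure D5:**
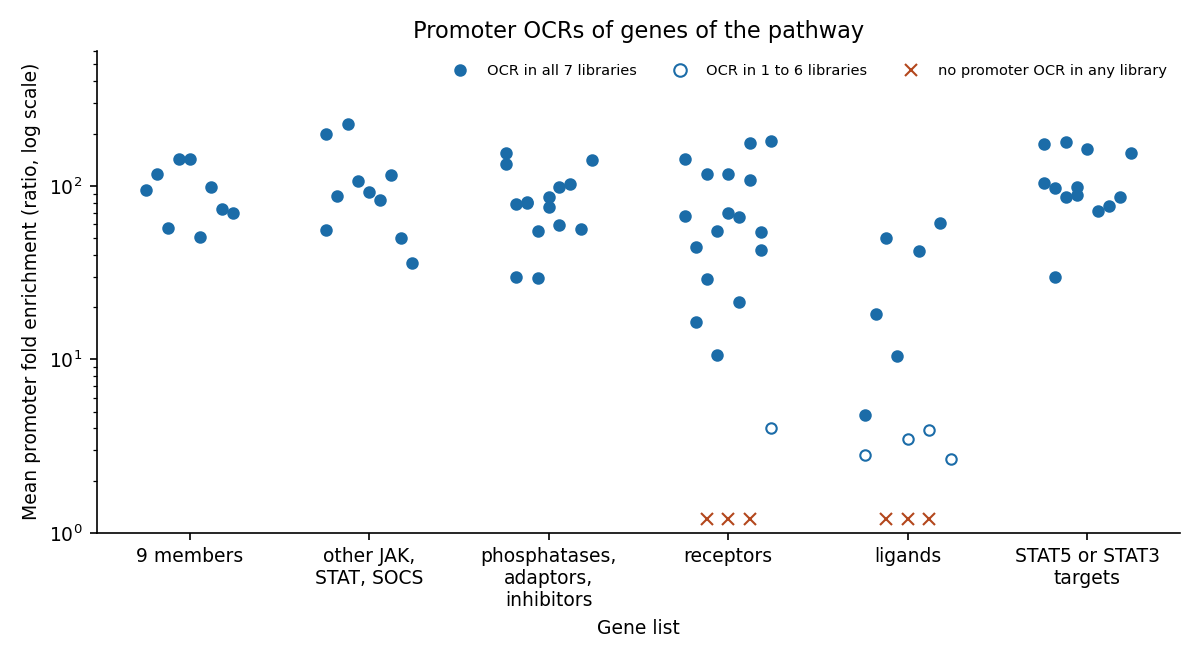
Mean promoter fold enrichment over the libraries with a peak (y axis, ratio, log scale) for the 9 genes and the 5 lists of the pathway (x axis). Filled circles are genes with an OCR in all 7 libraries, open circles in 1 to 6, and crosses genes with none, drawn at the foot of the plot. Ligands and receptors have 3 crosses each, and the other lists have none.

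For each of the 9 genes, the pathway gene with the most similar promoter percentiles over the 7 libraries was found among the 61 candidates, as the smallest root mean square difference. Stat3 was closest to Ptpn2, with a difference of 0.304 percentile points, and Jak2 to Stat2, with 0.388. Stat5a was closest to Cbl with 0.592, Socs3 to Gadd45g with 0.752, Jak1 to Myc with 0.786, Socs1 to Pias4 with 0.795, Cish to Fos with 0.819 and Jak3 to Socs2 with 0.900. Stat5b had the least close match, Il6ra with 1.38. The measure takes in the level as well as its change over libraries, and is given as a description.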

How the data were processed

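After trimming with Cutadapt, the authors mapped the reads of each library to mm10 by BWA-mem and ran MACS2 on it alone, and versions and options are not given in the sources used here. The deposited lists give a fold enrichment (a ratio to the library background, with 1 read added to both terms), a −log10 p, a −log10 q and a score per peak, and the authors' −log10 values and score were used only in alternatives or not at all. Within each library 100% of fold enrichments were whole multiples of 1 step (tolerance 0.05 steps), which gave the background. The strongest promoter OCRs of the 9 genes had 220 to 3375 reads at the summit. Errors are the SD over libraries and, for shares of OCRs with a motif, binomial intervals that cover counting error only.

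Peaks overlapping by at least 1 bp were merged into OCRs. Genes came from GENCODE M21, promoters were 3 kb on either side of any transcript start, and intensity was the highest fold enrichment of a library in an OCR. Libraries were compared with exact sign-flip permutation tests, adjusted by Benjamini-Hochberg over 9 pairs. No p-value was adjusted over genes. The 9 genes, the lists and the tests were chosen with earlier results of these data known. Named by rule were the strongest promoter OCR of each gene, its 3 distal OCRs in all libraries with the highest mean percentile, and of each list the 2 highest and 2 lowest genes and those without an OCR. Functions were tested on simulated data. The tools were scipy 1.17.1, pandas 2.3.3 and numpy 2.4.6 under Python 3.11.15, with pysam 0.24.0 for sequences and matplotlib 3.10.9 for figures. HPC7-3 was not analysed here. For 1 listed marker gene the values are not reported here.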

Additional observations from a re-analysis of the deposited data

Results flagged for a closer look

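Of 56 values compared over the 7 libraries, 1 had a library far from the others. HPC7-1 held 28 OCRs of the 9 genes that no other library had, while the next library held 2. The gap was 0.929 of the whole range. HPC7-1 also had the longest peak list and the highest background, and it covered 91.0% of all OCRs of the series where the other libraries covered 53.4 to 78.3%, and the part of its depth in this count was not tested. Chance alone places about 1 in 20 such values past the limit.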

How the results depend on the processing

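Of 191 values recomputed under another setting, 169 kept their direction and their side of the threshold or moved little. The count of 9 genes with a promoter OCR in all libraries held under each alternative run. The promoter minus distal difference was lowest, 22.7 percentile points, with distal OCRs limited to those in all libraries and promoter OCRs not so limited. It was highest, 40.9, with 1 kb promoters, and was 1.99 in log2 fold enrichment. With 1 library left out it was 32.0 to 33.6 (exact permutation test, p = 0.0312, the smallest that 6 libraries allow). With a 50-kb flank the OCRs in all libraries numbered 130, since the windows are longer, and with a 10-kb flank 66. They numbered 77 with a −log10 q of at least 5, 78 with lists cut to equal length and 86 to 90 with 1 library left out. Within the libraries sharing a peak name prefix the difference was 31.8 with p = 0.125 for EtOH and 34.4 with p = 0.250 for VD by the exact permutation test, and 0 and 0 pairs passed, since so few libraries cannot reach the threshold. Stat3 minus Stat5a lay between -0.00681 (without HPC7-4) and 0.0681 with 1 library left out, and Socs3 minus Cish was -0.0845 in the VD libraries. Neither pair had passed the test. With windows of 400 bases, 13.9% of the OCRs held the STAT motif (95% Wilson interval 9.41 to 19.9), against 10.5% of all OCRs. The count of listed pathway genes, 61, was 58 to 61 under 3 alternatives chosen after seeing the data. Between groups, no paired analysis was possible because all libraries belong to the same group. Genes, and promoter and distal peaks, were compared within each library. A gene or OCR without a listed peak may lie below the peak caller's threshold, which depends on depth. Intensity takes no local background into account.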
